A study of Mus musculus with 24 samples.

Results

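The 38 genes described here encode the machinery that copies DNA and the enzymes that make its deoxynucleotides. They were taken as a fixed list of symbols, which was drawn up with earlier results of these data known. All 38 were found among the 56884 genes of the count table and among the 13679 genes that had enough reads to be tested. RNA had been sequenced from bone marrow–derived macrophages (BMDM) of 4 wild-type female C57BL/6J mice, 9 weeks old and numbered 1, 2, 4 and 5, each of which gave 1 library in each of 6 groups (24 libraries). All cells were grown from marrow with the growth factor M-CSF, so every group, the naive one included, was of cultured cells. The naive group was left without interleukin-4 and interleukin-13 for 24 hours. The second group received interleukin-4 and interleukin-13 (IL-4/IL-13, 20 ng/ml each) for 24 hours, the stimulus of alternative macrophage activation. The other 4 groups received an inhibitor for 1 hour and then the inhibitor together with IL-4/IL-13 for 24 hours. Tunicamycin (5 µg/ml) blocks N-linked glycosylation and stresses the endoplasmic reticulum, and Sal003 (10 µM) blocks the dephosphorylation of eIF2α.

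Oligomycin (1 µM), an inhibitor of the mitochondrial ATP synthase, was given in the remaining 2 groups, in one of them with ISRIB (1 µM), which opposes the effect of phosphorylated eIF2α. The labels conflict on which group had ISRIB. The libraries named Oligo carry titles and treatment labels that include ISRIB, and those named Oli_ISR carry titles with oligomycin alone. The replicate tags of the same samples follow the library names instead. Both groups therefore keep their library names here, and expression was not consulted to settle the conflict. Libraries held 16238727 to 26725278 reads on genes (median 18999998). Replicates differed by more than sampling noise (chi-square per gene 2.14 to 34.38 over 36 pairs), and each was counted as its own replicate.

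Before S phase, the origin recognition complex, CDC6 and CDT1 load the ring-shaped MCM helicase onto DNA. CDC45 and GINS then turn the helicase on, primase and the polymerases start and extend the new strands along the sliding clamp PCNA, and flap endonuclease and ligase finish them. Ribonucleotide reductase, thymidylate synthase and thymidine kinase supply the building blocks, and CAF-1, UHRF1 and DNMT1 restore histones and DNA methylation behind the fork. Many of these genes are targets of E2F transcription factors and are transcribed mainly in dividing cells, and macrophages grown in M-CSF can divide.

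The promoters of these genes carried E2F-type words far more often than promoters in general. Over 300 bases from 250 before to 50 after the annotated start, 11 of 38 genes (28.9%) held at least 1 of the words TTTCCCGC, TTTGGCGC, TTTCGCGC and TTTGCCGC on either strand, against 612 of 21654 protein-coding promoters (2.83%). These 11 were *Mcm3*, *Mcm4*, *Mcm5*, *Mcm6*, *Orc1*, *Cdc6*, *Cdt1*, *Gins1*, *Rfc3*, *Pola1* and *Pole*. They held 18 words, 8 before and 10 after the start, some of which overlap each other on opposite strands. The box CCAAT stood in 60.5% of the promoters against 40% of all, the SP1-type word GGGCGG in 47.4% against 42.6%, and the CHR-type word TTTGAA in 10.5% against 17%. The windows below show how the words sit in 6 of the 11, among them subunits of the helicase and both factors that help to load it, in GRCm39 and read 5′ to 3′ along the gene with the E2F-type words in capitals. In *Mcm5*, *Mcm6* and *Gins1* a word runs into one on the other strand.
*Mcm5* chr8:75835974-75836013 (+): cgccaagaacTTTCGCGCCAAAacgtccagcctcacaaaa
*Mcm6* chr1:128287473-128287562 (-): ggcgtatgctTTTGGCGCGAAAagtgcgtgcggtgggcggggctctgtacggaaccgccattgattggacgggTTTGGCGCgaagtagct
*Mcm3* chr1:20890489-20890518 (-): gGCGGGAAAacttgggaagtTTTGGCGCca
*Gins1* chr2:150751502-150751531 (+): ctaTTTGGCGCCAAAgcgaggagctggttg
*Cdc6* chr11:98798647-98798676 (+): gaaggctgaagtagagcggcTTTGGCGCga
*Cdt1* chr8:123294768-123294797 (+): atccgcgggaactaccttTTTGGCGCcatg
A match is a description of letters and not of a bound site, and the absence of a match says only that these letters are not in the window. With IL-4/IL-13 the median log2 fold change against naive was 1.06 for the 11 genes with a word and 1.33 for the other 27, and with tunicamycin against IL-4/IL-13 it was -2.15 and -2.02.

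IL-4/IL-13 raised nearly the whole list. Of the 38 genes, 37 were higher than in naive macrophages and none was lower, since all 38 log2 fold changes were above 0 (edgeR quasi-likelihood test, adjusted *P* under 0.05), where 30.1% of all genes tested were higher and 30.4% lower. The median log2 fold change was 1.29, against -0.02 over all genes, and 18 of the 38 rose at least 2.5-fold, which 5.39% of all genes did. The only gene that did not pass was *Gins3* (0.18), a subunit of the GINS complex. In 36 of the 38 genes the 4 IL-4/IL-13 libraries all lay above the 4 naive libraries, as in 25.1% of all genes. *Gins3* and the clamp loader subunit *Rfc3* were the exceptions. Summed over the 38 genes, reads made up 736 ± 44.8 CPM (reads scaled to library size, mean ± SD, n = 4) in naive libraries and 1613 ± 74 with IL-4/IL-13, and the ratio within a mouse was 2.2 ± 0.173. In these bulk samples, more cells in cycle and more RNA per cell cannot be told apart, nor can fewer cells of a type and less RNA per cell.

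Every inhibitor lowered the list again. Against IL-4/IL-13 alone, 36 of 38 genes were lower with tunicamycin (37.6% of all genes tested were), 37 with Sal003 (24.6%), 36 in the Oligo libraries (32.2%) and 36 in the Oli_ISR libraries (26.4%). In each of these comparisons 1 gene was higher, beside 38.7%, 25.9%, 34% and 27.9% of all genes. The inhibitor libraries all lay below the IL-4/IL-13 libraries for 37, 36, 35 and 36 genes in the same order, as for 36.1%, 24.3%, 31.5% and 24.6% of all genes. The median log2 fold changes were -2.03, -1.29, -1.43 and -1.46 in the same order, and 28, 18, 20 and 21 genes fell at least 2.5-fold (14%, 5.04%, 7.96% and 5.02% of all genes). None rose that far (8.56%, 2.68%, 4.79% and 2.94% of all genes). The summed level was 433 ± 7.41 CPM with tunicamycin, 896 ± 33.4 with Sal003, 690 ± 18.1 in the Oligo libraries and 829 ± 16.5 in the Oli_ISR libraries. All 4 comparisons share the IL-4/IL-13 libraries, which also enter the comparison with naive cells, so they are not independent of one another.

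**Figure D1:**
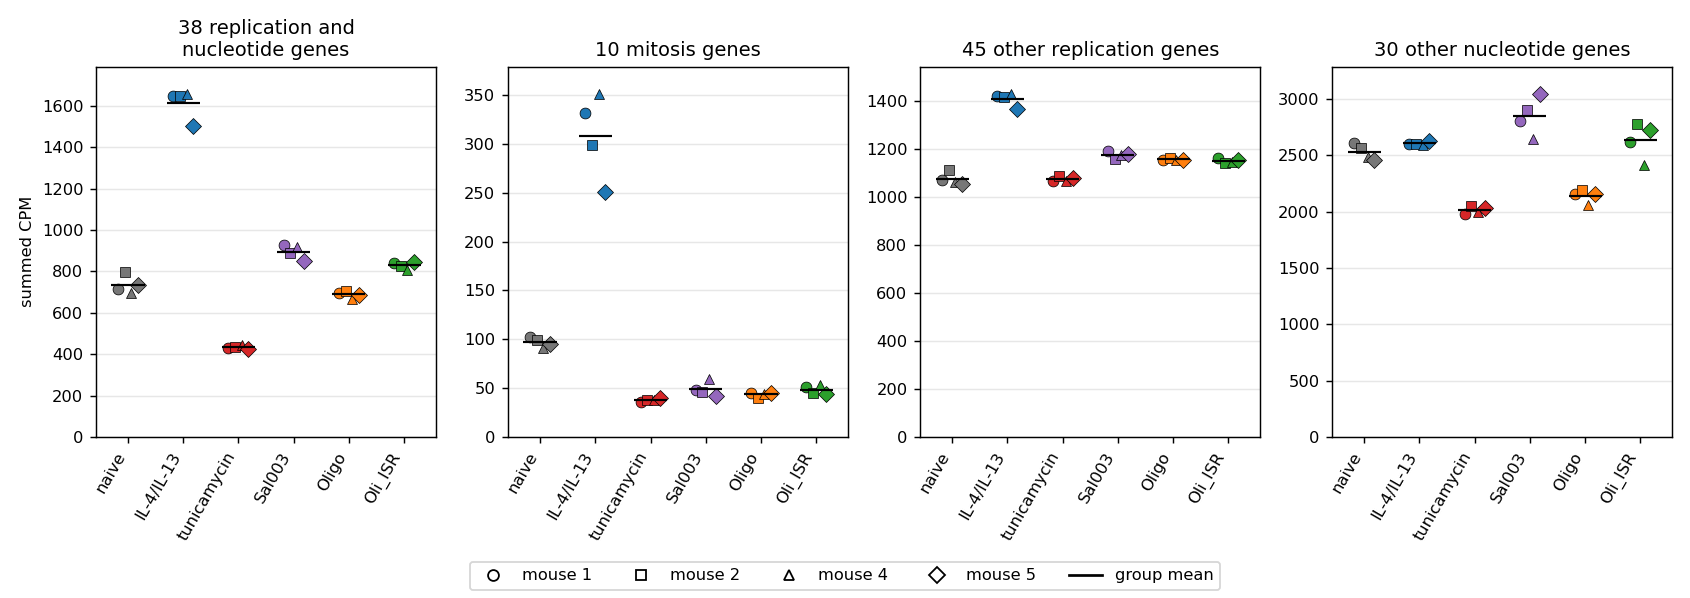
Summed CPM per library of the 38 replication and nucleotide genes, of 10 mitosis genes and of the other replication and nucleotide genes, by group (symbols, mice; bars, group means; all axes start at 0). The 38 genes summed to 1502 to 1657 CPM with IL-4/IL-13, above all other libraries, and to 427 to 443 with tunicamycin, below all others.

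Relative to the naive level, the inhibitors parted. Tunicamycin took 30 of 38 genes below naive and left 3 above it (median log2 fold change -0.96), where 40.5% of all genes tested were lower and 37.1% higher. With Sal003 14 genes were below naive and 7 above (-0.10), and 17 did not pass the test (30.8% and 31.7% of all genes). In the Oligo libraries 23 were below and 6 above (-0.34, beside 35.5% of all genes in each direction), and in the Oli_ISR libraries 19 were below and 6 above (-0.35, beside 31.2% and 32.6%). The Sal003 count of lower genes was near the share among all genes, and the counts of the other 3 groups were above it. At least 2.5-fold below naive were 13 genes with tunicamycin, 4 with Sal003, 7 in Oligo and 5 in Oli_ISR (15.1%, 7.49%, 9.53% and 7.37% of all genes), and 1, 0, 0 and 0 genes were that far above it (7.5%, 3.21%, 4.99% and 3.58%). All libraries of the group lay below all naive libraries for 27, 14, 22 and 18 genes (35.2%, 24.7%, 29.6% and 24.3% of all genes) and above them for 3, 6, 6 and 4 (32.8%, 25.3%, 30.7% and 25.7%). The ratio of the summed level to naive within a mouse was 0.59 ± 0.0384 with tunicamycin, 1.22 ± 0.0967 with Sal003, 0.938 ± 0.0398 in the Oligo libraries and 1.13 ± 0.0629 in the Oli_ISR libraries. These sums lean on *Pcna*, by far the most abundant member. Without *Pcna*, a sum added after seeing the data, the ratio to naive turned to 0.948 ± 0.0686 with Sal003 (below naive in 3 of 4 mice) and 0.84 ± 0.0445 in Oli_ISR (below in 4 of 4), and was 0.779 ± 0.0401 in Oligo, 0.572 ± 0.0349 with tunicamycin and 2.08 ± 0.175 with IL-4/IL-13 alone. IL-4/IL-13 gave the highest group mean for 36 of the 38 genes, the exceptions being *Tyms*, highest with tunicamycin, and *Cdt1*, highest in the Oligo libraries. The lowest mean fell to tunicamycin for 27 genes, to the Oligo libraries for 7, to the Oli_ISR libraries for 3 and to Sal003 for 1, and never to the naive group.

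**Figure D2:**
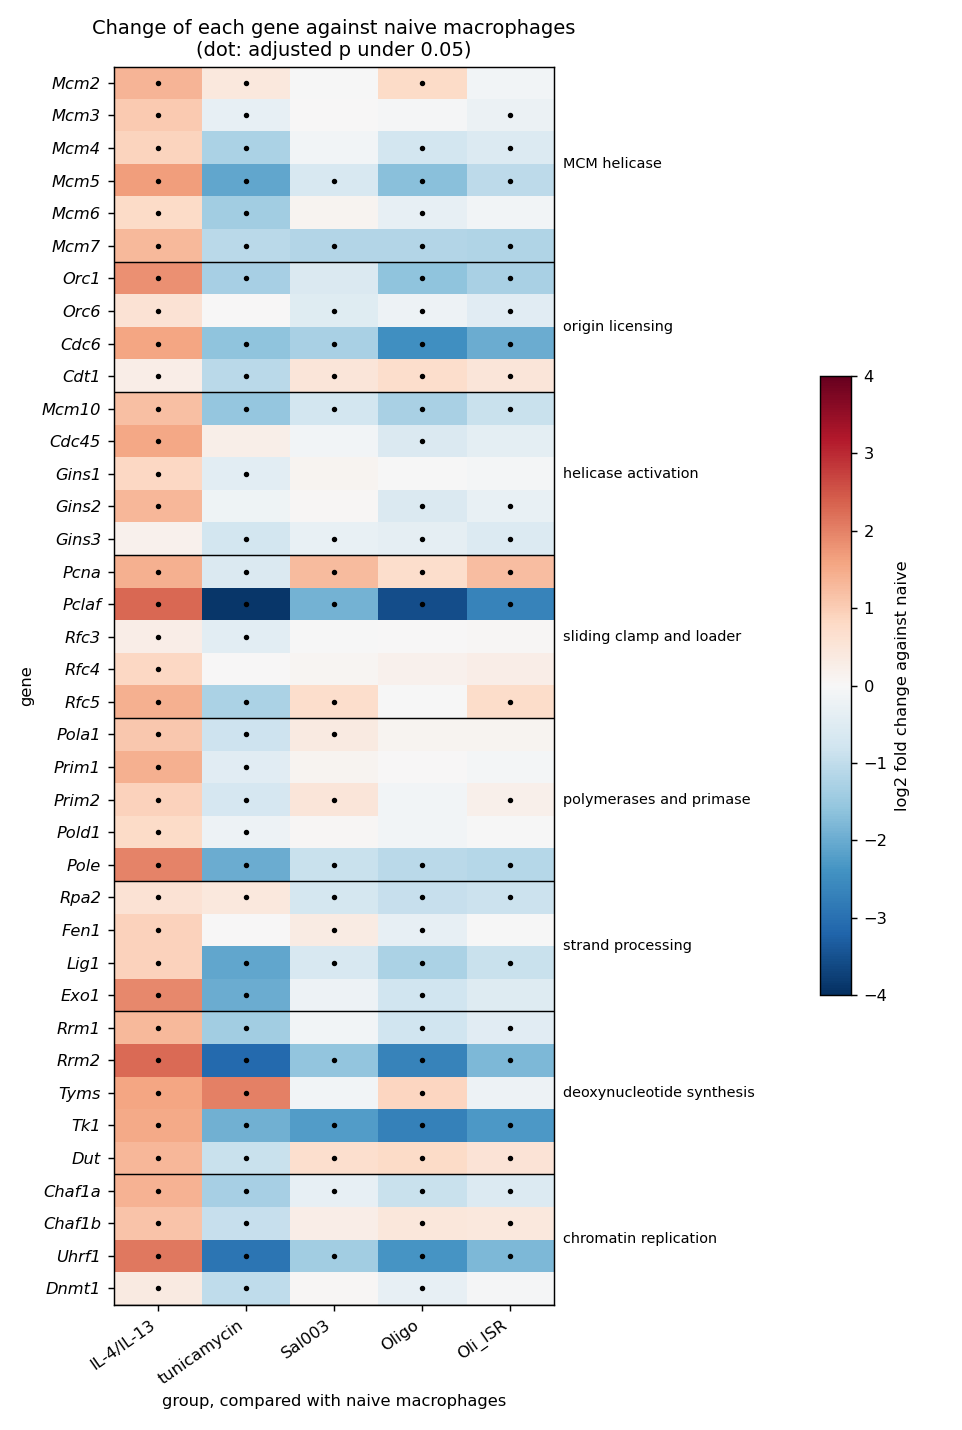
Log2 fold change of each gene (rows, by role) against naive macrophages in the other 5 groups (columns), with a dot where the adjusted P was under 0.05. The IL-4/IL-13 column is red throughout, with 37 dots, and the inhibitor columns are mixed, with *Pclaf* the lowest cell at -3.88 under tunicamycin.

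The MCM helicase genes moved as a block with IL-4/IL-13 and came apart under the inhibitors. All 6 rose with IL-4/IL-13 (log2 fold change 0.77 for *Mcm6* to 1.67 for *Mcm5*) and all 6 fell with each inhibitor. *Mcm6*, the most abundant of them per length (mean 52.7 TPM, reads scaled to exon length and library size), measured 56, 72.5, 57.2 and 61.5 CPM in the naive libraries of mice 1, 2, 4 and 5 and 108, 106, 108 and 100 CPM with IL-4/IL-13. It measured 24.9, 23.2, 24.3 and 22.6 CPM with tunicamycin, 68.8, 67.7, 64.7 and 64.6 with Sal003, 49.1, 52.2, 49.5 and 47.1 in the Oligo and 57.4, 60.1, 52.5 and 57.4 in the Oli_ISR libraries. The tunicamycin libraries lay below the naive range (-1.38 ± 0.07, adjusted *P* = 8.8e-16) and the Sal003 libraries within it (0.11 ± 0.06, adjusted *P* = 0.14, past the test without mouse 2).

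*Mcm2*, another subunit of the same ring, followed a different order. It measured 14.7, 18, 15.5 and 16 CPM in naive libraries, 40.3, 42, 41.8 and 40.7 with IL-4/IL-13, 21.1, 21.7, 22.7 and 20.2 with tunicamycin and 16.7, 15.7, 15.9 and 15.3 with Sal003. In the Oligo libraries it measured 26.2, 26.9, 28 and 28.6 CPM and in the Oli_ISR libraries 14.8, 14.6, 15.6 and 14.3, without overlap between these 2 groups (Oligo against Oli_ISR 0.89 ± 0.06, adjusted *P* = 4e-12). It was the only helicase gene above naive with tunicamycin (0.42 ± 0.06), where the other 5 were below, down to *Mcm5* at -2.08. *Mcm7* stood out in another way, being below naive by a similar amount with all 4 inhibitors (-1.07 to -1.20). On either strand, 21.7% of its 100-base words also occur in other genes. These can include *Ap4m1* and *Cops6*, which overlap it on the opposite strand.

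Among the 4 licensing genes, *Cdt1*, which delivers the helicase to origins, departed from the list. *Cdt1* (ENSMUSG00000006585, chr8:123294703-123300293, plus strand, mean 48 TPM) measured 24.8, 29.1, 27.2 and 28.7 CPM in naive libraries and 32.2, 36.1, 31 and 32.8 with IL-4/IL-13, a small rise (0.27 ± 0.08, lost without mouse 1). With tunicamycin it measured 13.8, 13.9, 11.7 and 12.9 CPM, below every naive library (-1.33 ± 0.09, adjusted *P* = 7.7e-13 against IL-4/IL-13). With Sal003 it measured 37.5, 40.3, 33.8 and 41.4, in the Oligo libraries 43.1, 46.7, 41.7 and 47.5 and in the Oli_ISR libraries 36.5, 40.5, 32.6 and 44.3 CPM. It was thus the 1 gene of the list that was higher with these treatments than with IL-4/IL-13 alone: Sal003 0.21 ± 0.08, adjusted *P* = 0.034, Oligo 0.44 ± 0.08, adjusted *P* = 3.9e-05, Oli_ISR 0.22 ± 0.08, adjusted *P* = 0.024. Within a mouse it was higher in 4 of 4 mice with each of these treatments. Of the 3, only the Oligo group lay wholly above the IL-4/IL-13 libraries, and the calls for Sal003 and Oli_ISR were lost when mouse 1 or mouse 5 was left out (and, for Sal003, mouse 2). The other 3 licensing genes fell with every inhibitor. *Cdc6*, the ATPase that works with CDT1, fell by 2.86 to 4.03 on the log2 scale and *Orc1*, a subunit of the origin recognition complex, by 2.42 to 3.46. *Orc1* rested on few reads, 0 to 15 per library with an inhibitor. *Orc6* fell by 0.57 to 1.05.

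Of the 5 genes of helicase activation, 4 rose with IL-4/IL-13 (0.83 for *Gins1* to 1.56 for *Cdc45*) and all 5 fell with each inhibitor, *Mcm10* the furthest with tunicamycin (-2.75). *Gins2* (mean 9.54 TPM), a further GINS subunit, measured 7.08, 8.93, 6.17 and 6.51 CPM in naive libraries and 18.8, 18.7, 18.6 and 16 with IL-4/IL-13 (1.34 ± 0.10, adjusted *P* = 1.8e-11). It measured 6.16, 6.43, 6.24 and 6.52 CPM with tunicamycin, 7.53, 6.77, 8.66 and 6.54 with Sal003, 5.02, 4.66, 4.45 and 5.2 in the Oligo and 5.9, 5.07, 6.22 and 6.08 in the Oli_ISR libraries. The IL-4/IL-13 libraries lay above all others, and the inhibitor libraries overlapped the naive range except in the Oligo group. Of the *Gins2* exon length, 67.3% overlaps *Gse1* on the opposite strand, and no source used here gives the strand setting of the count, so its values are uncertain.

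The clamp and its partner came far apart under the inhibitors. *Pcna*, the sliding clamp (ENSMUSG00000027342, chr2:132091082-132095234, minus strand, GRCm39), was its most abundant gene (mean 490 TPM, next *Mcm6* at 52.7). It measured 134, 150, 129 and 146 CPM in naive libraries and 378, 389, 368 and 366 with IL-4/IL-13 (1.42 ± 0.05, adjusted *P* = 1.6e-17). It measured 351, 330, 340 and 310 CPM with Sal003 (against IL-4/IL-13 -0.17 ± 0.05, lost without mouse 5) and 337, 325, 318 and 337 in the Oli_ISR libraries, was 232, 239, 206 and 227 in the Oligo libraries, and was 90.1, 90.5, 94.4 and 95.9 with tunicamycin. Sal003 and Oli_ISR libraries were thus well above naive (1.25 ± 0.05 and 1.24 ± 0.05) and tunicamycin libraries below it (-0.59 ± 0.05, adjusted *P* = 2.1e-10).

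*Pclaf*, a small protein that binds PCNA, had the largest change by size of the 38 genes in 8 of the 10 comparisons made (ENSMUSG00000040204, chr9:65797519-65812346, plus strand, GRCm39). Its naive libraries held 6.1, 9.04, 4.67 and 4.92 CPM and its IL-4/IL-13 libraries 34, 30, 32.6 and 24.8 (2.30 ± 0.16, adjusted *P* = 6.6e-12). With tunicamycin it held 0.257, 0.333, 0.511 and 0.56 CPM (5 to 11 reads per library), with Sal003 2.08, 1.3, 1.81 and 1.39, in the Oligo libraries 0.473, 0.658, 0.628 and 0.3 and in the Oli_ISR libraries 1.25, 0.771, 1.19 and 0.697. All 16 inhibitor libraries lay below all 4 naive libraries. The log2 fold changes against IL-4/IL-13 were -6.18 ± 0.24 with tunicamycin, -4.20 ± 0.20 with Sal003, -5.86 ± 0.23 for Oligo and -4.98 ± 0.21 for Oli_ISR.

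The clamp loader genes, which open PCNA and close it around DNA, did not move alike. *Rfc5* measured 15.1, 16.3, 15.5 and 13.7 CPM in naive libraries, 40.5, 41.9, 41 and 39 with IL-4/IL-13 and 5.8, 5.76, 6.86 and 6.57 with tunicamycin. It measured 24.1, 25.2, 25.4 and 23.6 with Sal003 and 27.4, 23.7, 24.8 and 24.9 in the Oli_ISR libraries, both above every naive library (0.70 ± 0.07 and 0.73 ± 0.07), and 17, 15.4, 13.6 and 13.4 in the Oligo libraries, which overlapped naive (-0.02 ± 0.07, adjusted *P* = 0.81). *Rfc4* passed the test against naive with no inhibitor (0.00 to 0.25, though the Oli_ISR value passed without mouse 2), and *Rfc3* only with tunicamycin (-0.43). Exons of *Pcna*, *Rfc4* and *Rfc5* overlap genes on the opposite strand by 20.8%, 29.0% and 41.4% of their length. On either strand, 42.9% of the 100-base words of *Pcna* occur in other genes, which can include the gene that overlaps it.

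**Figure D3:**
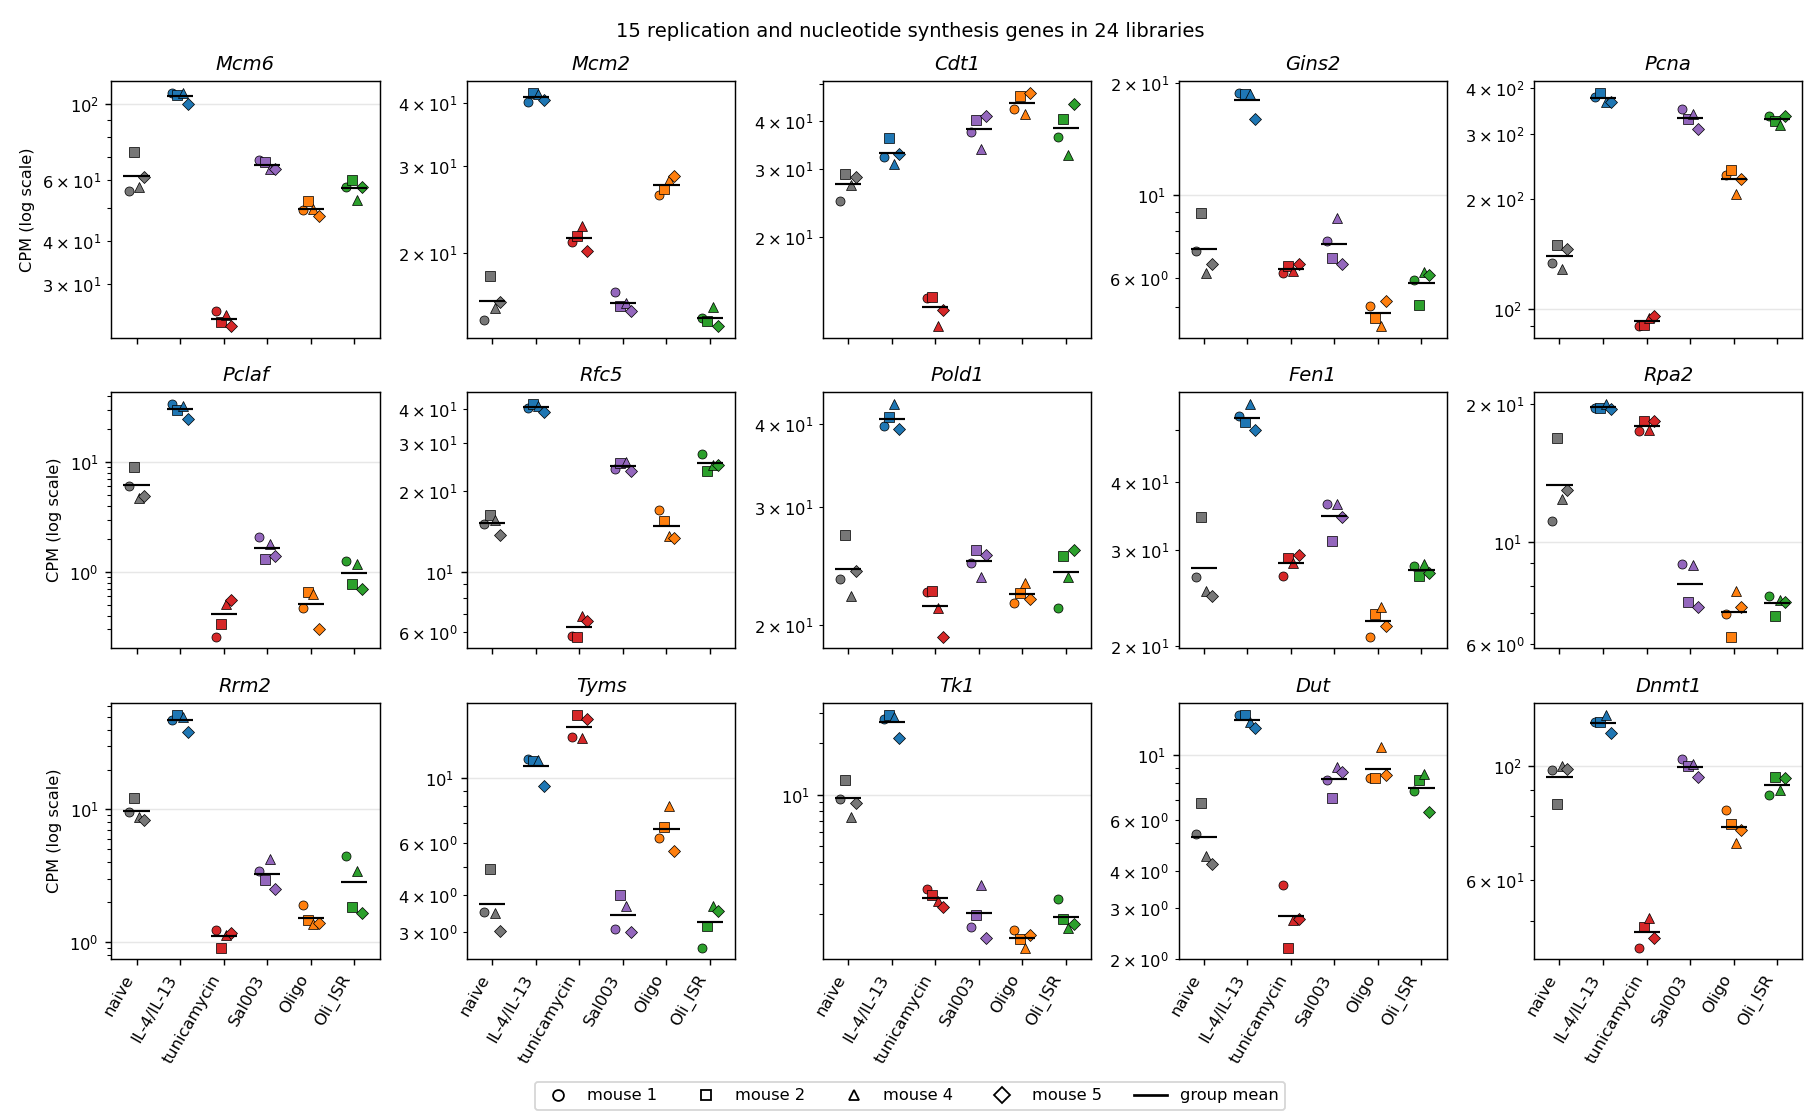
CPM of 15 of the 38 genes in all 24 libraries (log axes; symbols, mice; bars, group means). *Pclaf*, *Rrm2* and *Tk1* drop below naive in all 16 inhibitor libraries, *Pcna* stays at 310 to 351 CPM with Sal003, and *Tyms* is highest with tunicamycin, at 13.6 to 16.4 CPM.

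The 5 polymerase and primase genes all rose with IL-4/IL-13, from 0.75 (*Pold1*) to 1.97 (*Pole*), and all fell with every inhibitor. *Pold1*, the catalytic subunit of the lagging-strand polymerase δ (mean 21.1 TPM), measured 23.4, 27.3, 22.1 and 24.1 CPM in naive libraries and 39.7, 41, 42.9 and 39.3 with IL-4/IL-13 (0.75 ± 0.07, adjusted *P* = 3.1e-10). It returned to 22.4, 22.5, 21.2 and 19.2 CPM with tunicamycin, 24.8, 25.9, 23.6 and 25.5 with Sal003, 21.6, 22.3, 23.1 and 21.9 in the Oligo and 21.2, 25.4, 23.6 and 25.9 in the Oli_ISR libraries, which all overlapped the naive range. The small tunicamycin difference from naive (-0.19 ± 0.07) was lost without mouse 2 or mouse 5. *Pole*, the leading-strand polymerase ε, went below naive with all 4 inhibitors instead (-0.89 with Sal003 to -1.99 with tunicamycin). *Pola1* and *Prim2*, of the polymerase α–primase complex that lays down primers, were above naive with Sal003 (0.37 and 0.48) and below it with tunicamycin (-0.84 and -0.68), and the primase subunit *Prim1* was below it with tunicamycin (-0.46).

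The 4 genes that protect, trim and join strands rose with IL-4/IL-13 by 0.57 (*Rpa2*) to 1.92 (*Exo1*, an exonuclease). *Fen1*, the flap endonuclease (mean 47.3 TPM), measured 26.8, 34.6, 25.3 and 24.7 CPM in naive libraries and 53, 51.6, 55.8 and 50 with IL-4/IL-13 (0.92 ± 0.07). It measured 26.9, 29, 28.4 and 29.4 CPM with tunicamycin, 36.5, 31.2, 36.5 and 34.6 with Sal003, 20.8, 22.9, 23.6 and 21.8 in the Oligo and 28.1, 26.9, 28.3 and 27.2 in the Oli_ISR libraries, so that only the Oligo group lay wholly below naive. Its exons overlap *Tmem258* and *Gm10143* on the opposite strand over 65.9% of their length, and its counts are uncertain. *Rpa2*, a subunit of the protein that coats single-stranded DNA, was the only gene that did not fall with tunicamycin by the test other than *Tyms*, which rose.

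*Rpa2* measured 11.1, 16.8, 12.4 and 13 CPM in naive libraries, 19.6, 19.6, 20 and 19.5 with IL-4/IL-13 and 17.4, 18.3, 17.5 and 18.3 with tunicamycin (-0.14 ± 0.09, adjusted *P* = 0.17 against IL-4/IL-13, 0.43 ± 0.09, adjusted *P* = 0.00017 against naive). With Sal003 it measured 8.93, 7.39, 8.89 and 7.21 CPM, in the Oligo libraries 6.96, 6.21, 7.8 and 7.2 and in the Oli_ISR libraries 7.64, 6.89, 7.46 and 7.39, all below naive. The groups with IL-4/IL-13 alone and with tunicamycin did not overlap, and the difference passed when only these 2 groups were fitted. *Lig1*, the ligase that seals Okazaki fragments, fell below naive with all 4 inhibitors, by 0.63 with Sal003 to 2.07 with tunicamycin.

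The 5 genes of deoxynucleotide synthesis all rose with IL-4/IL-13 and differed widely under the inhibitors. *Rrm2*, the regulatory subunit of ribonucleotide reductase (ENSMUSG00000020649, chr12:24757811-24764145, plus strand, mean 15.2 TPM), measured 9.56, 12.2, 8.79 and 8.3 CPM in naive libraries and 47.2, 52, 50 and 38.7 with IL-4/IL-13 (2.28 ± 0.16, adjusted *P* = 8.3e-12). It measured 1.23, 0.904, 1.13 and 1.17 CPM with tunicamycin, 3.43, 2.93, 4.19 and 2.52 with Sal003, 1.89, 1.46, 1.36 and 1.4 in the Oligo and 4.44, 1.82, 3.45 and 1.66 in the Oli_ISR libraries. Every inhibitor library lay below every naive library. The falls against IL-4/IL-13 were -5.40 ± 0.22 with tunicamycin, -3.85 ± 0.19 with Sal003, -4.93 ± 0.21 for Oligo and -4.08 ± 0.19 for Oli_ISR. Its catalytic partner *Rrm1* fell less, by 1.41 to 2.69. Of the 100-base words of *Rrm2*, 25.8% also occur in other genes.

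*Tk1*, the thymidine kinase of the salvage route, measured 9.47, 12.2, 7.4 and 8.89 CPM in naive libraries and 27.7, 29.5, 28.4 and 21.6 with IL-4/IL-13. It measured 2.77, 2.57, 2.38 and 2.19 CPM with tunicamycin, 1.66, 1.97, 2.94 and 1.44 with Sal003, 1.61, 1.41, 1.26 and 1.5 in the Oligo and 2.44, 1.87, 1.64 and 1.74 in the Oli_ISR libraries. It was below naive in every library with an inhibitor. The log2 fold changes against naive were -1.93 ± 0.17 with tunicamycin, -2.25 ± 0.18 with Sal003, -2.70 ± 0.18 in Oligo and -2.30 ± 0.17 in Oli_ISR, so that tunicamycin did not give the lowest value here.

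*Tyms*, thymidylate synthase, the other source of thymidylate (ENSMUSG00000025747, chr5:30263198-30278633, minus strand), went the opposite way with tunicamycin. It measured 3.51, 4.89, 3.49 and 3.03 CPM in naive libraries, 11.6, 11.4, 11.5 and 9.41 with IL-4/IL-13 and 13.8, 16.4, 13.6 and 15.8 with tunicamycin. The tunicamycin libraries lay above all IL-4/IL-13 libraries (0.44 ± 0.12, adjusted *P* = 0.0017) and above naive in 4 of 4 mice (2.01 ± 0.13, adjusted *P* = 6.6e-13), the largest rise of the list against naive outside the IL-4/IL-13 group. With Sal003 it measured 3.06, 4, 3.68 and 2.99 CPM and in the Oli_ISR libraries 2.65, 3.14, 3.68 and 3.52, within or near the naive range. The Oligo libraries held 6.25, 6.82, 8.01 and 5.65 CPM, above all naive and all Oli_ISR libraries (Oligo against Oli_ISR 1.03 ± 0.14, adjusted *P* = 1.9e-06).

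*Dut*, the dUTPase that keeps uracil out of DNA, measured 5.37, 6.82, 4.5 and 4.22 CPM in naive libraries and 13.6, 13.7, 12.9 and 12.3 with IL-4/IL-13. It measured 3.59, 2.19, 2.72 and 2.75 CPM with tunicamycin, below every naive library, 8.2, 7.11, 9.06 and 8.75 with Sal003, 8.33, 8.32, 10.6 and 8.49 in the Oligo and 7.53, 8.21, 8.59 and 6.39 in the Oli_ISR libraries. The last 3 groups were above naive by the test (0.67 ± 0.14, 0.78 ± 0.14 and 0.55 ± 0.14), though the Oli_ISR and naive libraries overlapped.

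The 4 genes of chromatin replication all rose with IL-4/IL-13 and all fell with each inhibitor. *Dnmt1*, the maintenance DNA methyltransferase (mean 49.6 TPM), rose least of the 4 with IL-4/IL-13 (0.35 ± 0.05). It measured 98.2, 84.3, 100 and 98.7 CPM in naive libraries, 122, 122, 126 and 116 with IL-4/IL-13 and 44.3, 48.7, 50.7 and 46.2 with tunicamycin (-1.01 ± 0.06, adjusted *P* = 2.4e-14 against naive). It measured 103, 100, 101 and 95.2 CPM with Sal003, 82, 77.2, 70.9 and 75 in the Oligo and 87.9, 95.3, 89.8 and 94.9 in the Oli_ISR libraries. Only the tunicamycin and Oligo groups lay wholly below naive. *Uhrf1*, which brings DNMT1 to hemimethylated DNA, moved furthest of the 4 in these comparisons, rising by 2.11 with IL-4/IL-13 and falling by 3.50 (Sal003) to 5.02 (tunicamycin) against it. The CAF-1 subunits *Chaf1a* and *Chaf1b* rose by 1.39 and 1.13. Against naive they differed, *Chaf1a* being lower with all 4 inhibitors (-0.34 to -1.32) and *Chaf1b* higher in the Oligo and Oli_ISR libraries (0.45 and 0.42, the latter call lost without mouse 1) and lower with tunicamycin (-0.92). *Chaf1a* exons overlap *Ubxn6* on the opposite strand over 51.0% of their length.

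**Figure D4:**
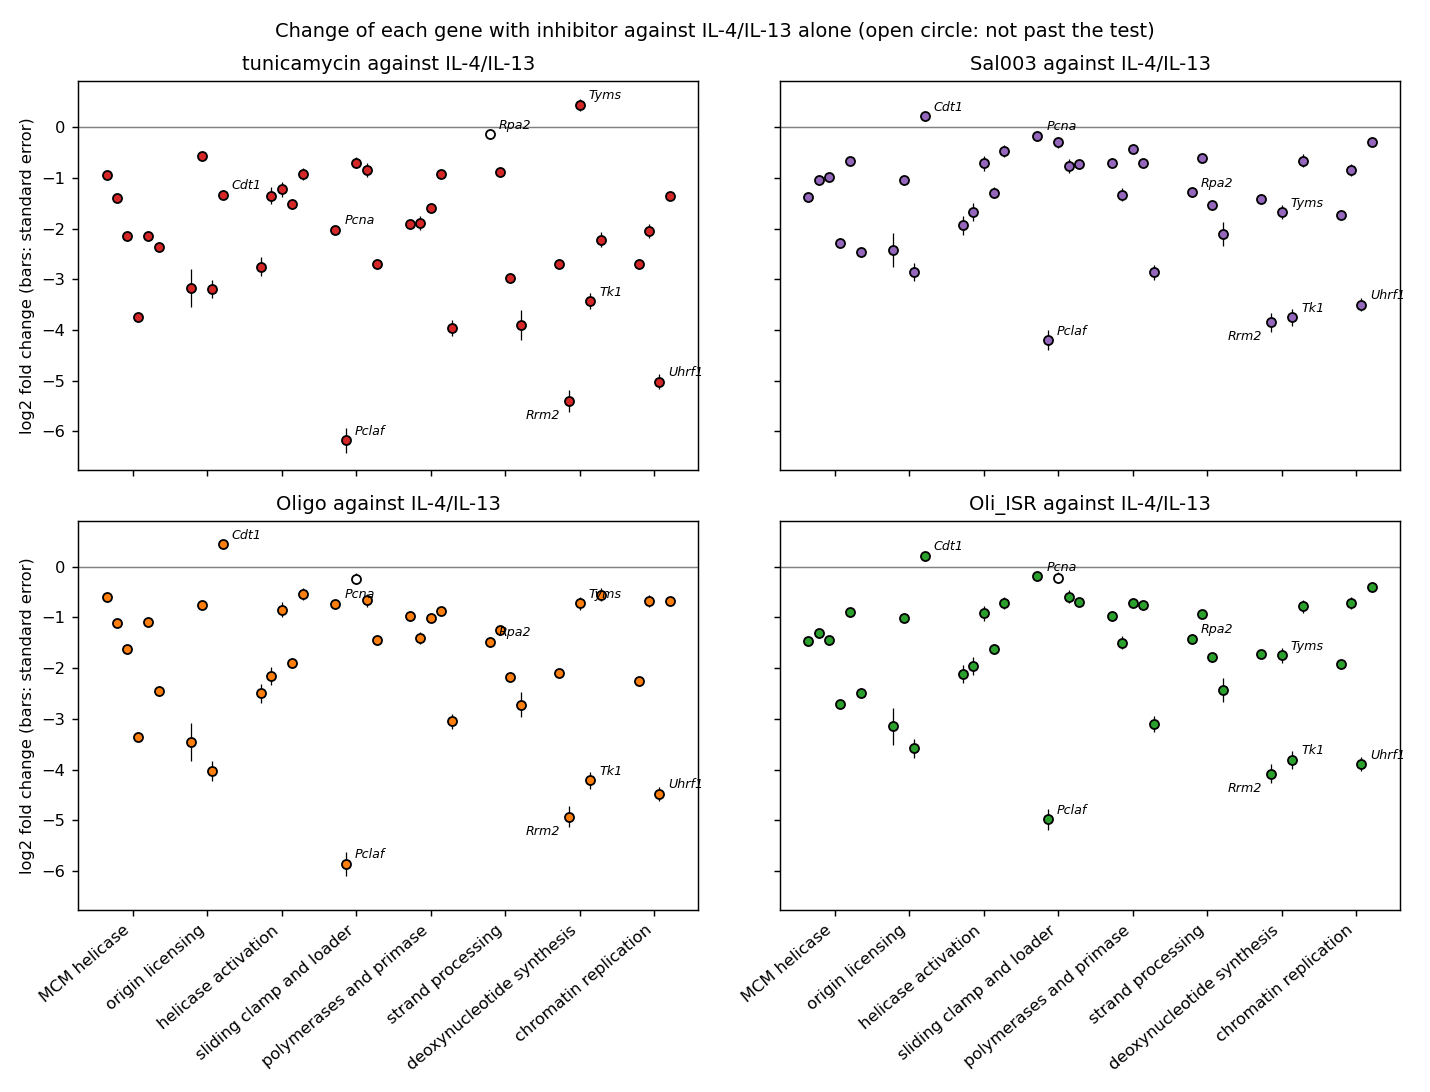
Log2 fold change of each of the 38 genes with each inhibitor against IL-4/IL-13 alone, by role (bars, standard error; open circles, not past the test). Nearly all points lie below 0, with *Pclaf* lowest in each panel, and the points above 0 are *Tyms* with tunicamycin (0.44) and *Cdt1* with the other treatments (0.21 to 0.44).

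The Oligo and Oli_ISR groups were compared directly, since they differ in ISRIB whichever label holds. In Oligo, 5 genes were higher and 14 lower than in Oli_ISR, 19 did not pass, and none differed 2.5-fold, as 1.14% (higher) and 1.48% (lower) of all genes did. Of all genes tested 19.9% were higher and 21.3% lower, so the share of lower genes was above, and that of higher genes below, the general one. *Tyms* and *Mcm2* (above) had the largest rises, and *Orc6*, *Cdt1* and *Mcm3* the others (0.20 to 0.26), of which *Orc6* was lost without mouse 2 and *Cdt1* without mouse 1, 2 or 4. The largest falls were those of *Pclaf* (-0.88 ± 0.35, adjusted *P* = 0.049) and *Rrm2* (-0.85 ± 0.27, adjusted *P* = 0.012), and both calls were lost without mouse 1. Without mouse 1 the count of lower genes was 8. The share of all genes in that smaller fit is not given here, so whether an excess remained without mouse 1 cannot be said. With all mice, the Oligo libraries lay wholly below the Oli_ISR libraries for 14 genes and wholly above them for 4 (21.1% and 20.5% of all genes). Without mouse 2 the count of higher genes was 3. *Rfc5* (-0.76 ± 0.07) and *Pcna* (-0.54 ± 0.05) were also lower in Oligo, with no overlap of libraries.

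Other genes of the cell cycle were read from lists beside the 38. All 10 mitosis genes were higher with IL-4/IL-13 (median log2 fold change 1.73) and all 10 were lower with each inhibitor, both against IL-4/IL-13 (medians -3.34, -2.88, -2.96 and -2.80 for tunicamycin, Sal003, Oligo and Oli_ISR) and against naive (-1.81, -1.03, -1.19 and -1.06). Their summed level was 97.2 ± 4.66 CPM in naive, 308 ± 43.8 with IL-4/IL-13 and 37.6 ± 1.64 to 48.9 ± 7.31 with the inhibitors. Of 45 further replication genes 36 were higher and 4 lower with IL-4/IL-13 (median 0.48), and 29 to 31 were lower with each inhibitor against it. Their summed level was 1074 ± 25.8 CPM in naive, 1406 ± 28.7 with IL-4/IL-13 and 1074 ± 9.95 (tunicamycin) to 1175 ± 14.4 (Sal003) with the inhibitors. No inhibitor group mean was thus below the naive mean for this list. Of 30 further nucleotide genes 18 were higher and 6 lower with IL-4/IL-13 (median 0.35), and 10 to 14 were lower and 9 to 11 higher with the inhibitors. Of 13 G1/S regulators 9 were higher and 1 lower with IL-4/IL-13, and 9 to 11 lower with the inhibitors. Their summed level was 694 ± 38.3 CPM in naive, 906 ± 8.46 with IL-4/IL-13 and 517 ± 9.54 with tunicamycin. It stayed above the naive mean with Sal003 (879 ± 93.7), in Oligo (868 ± 37.9) and in Oli_ISR (861 ± 93). Over all genes tested, 30.1% were higher and 30.4% lower with IL-4/IL-13, and against it 24.6% to 37.6% were lower and 25.9% to 38.7% higher with the inhibitors, so the counts of the further nucleotide genes with the inhibitors were near the general shares.

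Named by size of change in these lists, *Ccne2* (cyclin E2, which starts S phase) rose by 2.26 ± 0.13 with IL-4/IL-13 and changed by -3.93 ± 0.16 with Sal003, -4.53 ± 0.17 in Oligo and -4.31 ± 0.16 in Oli_ISR against it. *E2f7*, a repressor of E2F targets, rose by 2.39 ± 0.29 and had 1 to 14 reads per library with any inhibitor. *Ccnd1* (cyclin D1) changed by -6.52 ± 0.15 with tunicamycin against IL-4/IL-13. *Impdh1* (3.60 ± 0.06) and *Cad* (1.93 ± 0.06), which start guanine nucleotide and pyrimidine synthesis, rose with tunicamycin, where most of the 38 genes fell. Summed, though, the further nucleotide genes were lower with tunicamycin (2014 ± 31.1 CPM) than with IL-4/IL-13 (2606 ± 12.6) or in naive cells (2530 ± 68.6). *Cmpk2*, a mitochondrial nucleotide kinase, fell with IL-4/IL-13 (-3.59 ± 0.31) and was higher against it with Sal003 (3.51 ± 0.31), in Oligo (2.90 ± 0.31) and in Oli_ISR (3.48 ± 0.31). *Mtbp*, an origin firing factor, was above naive in Oligo (2.24 ± 0.13) and Oli_ISR (1.84 ± 0.13).

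All 8 macrophage markers (*Adgre1*, *Csf1r*, *Cd68*, *Mertk*, *Fcgr1*, *Itgam*, *Cd14*, *Lyz2*) were detected in every group, and 7 of the 8 were lower with IL-4/IL-13 than in naive cells (summed 11426 to 13836 CPM against 31093 to 36950). They summed to 16442 to 18062 CPM with tunicamycin, 13831 to 15562 with Sal003, 8782 to 9611 in Oligo and 13445 to 15349 in Oli_ISR, and of the 8, 4, 3, 3 and 3 were higher and 3, 2, 4 and 2 lower than with IL-4/IL-13 in the same order. Markers of other cells moved with the same treatments. Of 10 granulocyte or progenitor genes 7 were tested, and the list summed to 33.9 to 53.5 CPM in naive libraries, 23.6 to 39.4 with IL-4/IL-13, 1.19 to 1.87 with tunicamycin, 4.51 to 8.49 with Sal003, 3.86 to 6.15 in Oligo and 13.8 to 18.7 in Oli_ISR. The 4 fibroblast genes summed to 18.2 to 137 CPM in naive libraries, 15.2 to 86.1 with IL-4/IL-13 and 3.52 to 54.4 with the inhibitors. The 3 dendritic genes summed to 2.52 to 5.62 CPM in naive libraries and 4.53 to 6.37 with IL-4/IL-13. They summed to 0.908 to 1.83 CPM with tunicamycin, 1.24 to 1.9 with Sal003, 1.22 to 2.15 in Oligo and 1.14 to 2.28 in Oli_ISR. The 5 lymphocyte genes summed to at most 1.23 CPM in any library, and *Cd3e*, *Cd3d*, *Hba-a1* and *Hbb-bs* had 3 reads or fewer in each. With IL-4/IL-13, where the 38 genes rose, 1 of the 7 granulocyte genes tested was higher and 4 were lower than in naive cells, and 0 of the 4 fibroblast genes passed the test (log2 fold changes -1.15 to -0.51). Against IL-4/IL-13, where the 38 genes fell, 6, 6, 6 and 5 of the 7 granulocyte genes were lower with tunicamycin, Sal003, Oligo and Oli_ISR, and 3, 1, 0 and 0 of the 4 fibroblast genes. Their part in the falls was not tested.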

How the data were processed

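RNA of BMDM from 4 mice in 6 groups was analysed, 24 libraries in all. The authors aligned the reads to GRCm39 and counted them per gene, and the counts they deposited, not normalized, are the values used here. The submitters' processing notes name Cutadapt 1.8, STAR 2.7, HTSeq 0.9.1 and RSEM 1.2.31. The deposited TPM table was not used, because its header names do not match its columns in number. TPM here was computed from the counts and exon lengths. The 5 entries that name no gene took 12.7% to 15.2% of reads and were left out. The strand setting is not given in the sources used here.

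Groups were compared in R 4.3.3 by edgeR 4.0.16 (TMM normalization, filterByExpr, quasi-likelihood test, 1 coefficient per group over all libraries, Benjamini-Hochberg adjustment over 13679 genes, called at an adjusted p-value under 0.05). Errors of fold changes are standard errors. The same edgeR test, for IL-4/IL-13 against naive, was first run on simulated counts. The simulation gave all genes the same spread and held no effect of the mouse, unlike the data.

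A shared number marks a shared mouse. Within a mouse, deviations from the group means correlated (median r 0.24, 56 of 60 pairs above 0.1), against -0.05 between different mice (7 of 180). The study states no block for the mouse, so a replicate block was an alternative, as were DESeq2 1.42.0, other normalizations and filters, a fit of only the groups compared, a 2.5-fold threshold, leaving out each mouse in turn and, chosen after seeing the data, counting only the 30 genes that share at most 20% of exon length or 100-base words with other genes, and summing the genes without *Pcna*.

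The 38 genes and the other lists were chosen with earlier results of these data known. Values in every library are given for the gene with the highest mean TPM in each role and for the 2 largest rises and 2 largest falls past the test in each comparison. Other genes are given by range and counts, and the values singled out among them were chosen after being seen. Of the other lists, genes are named from the 2 largest rises and falls of each comparison with naive or IL-4/IL-13. Motifs were searched in GRCm39 at the Ensembl canonical start.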

Additional observations from a re-analysis of the deposited data

Results flagged for a closer look

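In 14 of the 228 groups of 4 libraries examined (38 genes in 6 groups), 1 library stood apart from the other 3, with a gap to its nearest neighbour that took more of the group's range than Dixon's 95% critical value. Chance alone is set to do this in about 1 in 20 groups. Mouse 4 was the library apart in 6, mouse 1 and mouse 5 in 3 each and mouse 2 in 2, and 5 of the 14 were with tunicamycin.

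For *Mcm5* in the tunicamycin libraries, mouse 5 measured 4.74 CPM and its nearest neighbour 5.73 (gap 0.927 of the range). Mouse 2 measured 0.846 CPM of *Orc1* in the Sal003 group, 0.857 of the range away from the next library at 0.363. The naive library of mouse 4 held 4.08 CPM of *Cdc6* where the nearest other held 3.08, a gap of 0.889. For *Gins1* in the Oligo libraries, mouse 4 measured 3.25 CPM and its nearest neighbour 3.08 (gap 0.852 of the range). Mouse 5 measured 16 CPM of *Gins2* in the IL-4/IL-13 group, 0.933 of the range away from the next library at 18.6. The tunicamycin library of mouse 4 held 9.64 CPM of *Rfc3* where the nearest other held 8.04, a gap of 0.943. For *Rfc3* in the Oli_ISR libraries, mouse 4 measured 10.4 CPM and its nearest neighbour 12.1 (gap 0.945 of the range). Mouse 1 measured 6.52 CPM of *Prim2* in the tunicamycin group, 0.882 of the range away from the next library at 5.52. The tunicamycin library of mouse 1 held 0.565 CPM of *Pole* where the nearest other held 0.908, a gap of 0.885. For *Exo1* in the tunicamycin libraries, mouse 4 measured 0.851 CPM and its nearest neighbour 0.257 (gap 0.839 of the range). Mouse 5 measured 9.41 CPM of *Tyms* in the IL-4/IL-13 group, 0.914 of the range away from the next library at 11.4. The Oligo library of mouse 4 held 10.6 CPM of *Dut* where the nearest other held 8.49, a gap of 0.926. For *Uhrf1* in the Oli_ISR libraries, mouse 1 measured 5.31 CPM and its nearest neighbour 3.14 (gap 0.961 of the range). Mouse 2 measured 84.3 CPM of *Dnmt1* in the naive group, 0.863 of the range away from the next library at 98.2.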

How the results depend on the processing

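Of the 380 gene-by-comparison tests on the 38 genes, all 380 kept their outcome under the replicate block by mouse. DESeq2 lost 6 and gained 1, RLE size factors gained 2, and upper-quartile normalization lost 7 and gained 6. Without a filter on low counts (27890 genes) 9 were lost. Fitting only the 2 groups compared lost 8 and gained 2. A minimum of 10 counts in every library (11017 genes) left out *Orc1*, *Cdc6*, *Pclaf* and *Exo1*, lost 2 and gained 5. Without 1 mouse, 8 to 17 were lost and 1 to 5 gained. No called gene changed direction under these alternatives. Scaling moved the median of all genes by at most 0.068 on the log2 scale. The cause of each change was not tested.

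Under the 2.5-fold threshold, which by construction calls fewer genes, 18 genes rose with IL-4/IL-13. Against naive 1 was higher and 13 lower with tunicamycin, 0 and 4 with Sal003, 0 and 7 in Oligo, and 0 and 5 in Oli_ISR. Against IL-4/IL-13 0 were higher with any inhibitor, and 18 were lower with Sal003, 20 in Oligo and 21 in Oli_ISR. Between Oligo and Oli_ISR 0 were higher and 0 lower. The 1 gene (*Cdt1*) higher with Sal003 than with IL-4/IL-13 became 0 with DESeq2, upper-quartile normalization and the minimum of 10 counts, and in Oli_ISR 0 with upper-quartile normalization and with only 2 groups fitted.

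Leaving out each mouse gave 0 to 1 higher for both of these, and 3 to 5 higher and 8 to 14 lower for Oligo against Oli_ISR. Counting only the 30 genes that share little with others gave 4 above naive with Sal003 and 9 lower in Oligo than in Oli_ISR. Depth limits *Orc1*, *Cdc6*, *Pclaf* and *Exo1*, with under 10 reads in some inhibitor libraries.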
